A study of Mus musculus with 12 samples.

Results

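The 10 genes described here carry out and control the presentation of antigen on major histocompatibility complex (MHC) class II molecules: H2-Aa, H2-Ab1, H2-Eb1, Cd74, H2-DMa, H2-DMb1, H2-DMb2, H2-Oa, H2-Ob and Ciita. They are 10 of the 21899 genes in a table of kidney messenger RNA levels. They were found by matching mouse Ensembl gene identifiers to these symbols. The family was chosen by its measured values, which were higher in kidneys labelled as overexpressing GABP (db/m-GABP-OE) than in the control kidneys (db/m-veh). The values of that contrast are therefore given as a description with no test.

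The study measured mouse kidney RNA in 12 libraries, 3 for each of 4 groups. The db/m-GABP-OE group held db/m kidneys in which GABP was to be overexpressed. The db/db-GABP-KD group held db/db kidneys in which GABP was to be knocked down. The db/db-veh group was the diabetic nephropathy group and the db/m-veh group the normal control, both given vehicle. Mice of the db/db genotype have no functional leptin receptor, grow obese and develop diabetes, and lean heterozygous db/m mice serve as controls. GABP is a transcription factor with an alpha subunit that binds DNA and a beta subunit. All mice were kept in a specific pathogen free room. The sources used here do not say how GABP was raised or lowered, which subunit was targeted, whether those 2 groups also received vehicle, or the strain, sex and age. Kidneys came from 6 mice per group, and the tissues of 3 were mixed for an extraction, so that libraries of a group may share animals. The p-values then measure the spread between libraries only, which may be partly technical.

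MHC class II molecules are pairs of an alpha and a beta chain that show peptides from taken-up proteins to CD4 T cells. The invariant chain, encoded by Cd74, holds the peptide groove until the H2-DM molecule exchanges its remnant for a peptide in the endosome, and H2-O restrains H2-DM. Dendritic cells, B cells and macrophages express these genes constantly or readily, and interferon gamma can turn them on in other cells, kidney tubule cells included, through the transactivator Ciita.

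The H2 members lie together on chromosome 17 of GRCm38, from the start of H2-Oa at 34092340 to the end of H2-Eb1 at 34316674. Ciita lies on chromosome 16 (10480059 to 10528418, plus strand). Class II promoters share a pair of elements, the X box, bound by the RFX complex and CREB, and the Y box, bound by NF-Y, on which Ciita is recruited. Promoter windows from RefSeq (GRCm38.p6; 250 bases before and 50 after a start) matched 7 of the 10 members, in 8 windows. H2-Ab1, Cd74 and Ciita had no match. The last 150 bases before the start are shown for H2-Aa and for the 4 members with both sets of letters described next. These bases place the letters that the members share. They run 5′ to 3′ on the strand of the gene, and capitals mark TGATTGG, letters of the Y box, and ATGATG, letters of the X box, where it precedes TGATTGG by at most 30 bases. H2-Aa is on the minus strand and the others on the plus strand. The regions are chr17:34305717-34305866 for H2-Eb1, chr17:34153041-34153190 for H2-DMb1, chr17:34145099-34145248 for H2-DMb2, chr17:34238755-34238904 for H2-Ob and chr17:34287824-34287973 for H2-Aa.
H2-Eb1: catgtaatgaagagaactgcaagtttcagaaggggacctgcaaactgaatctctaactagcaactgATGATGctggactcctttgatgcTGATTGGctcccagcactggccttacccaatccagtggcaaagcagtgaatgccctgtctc
H2-DMb1: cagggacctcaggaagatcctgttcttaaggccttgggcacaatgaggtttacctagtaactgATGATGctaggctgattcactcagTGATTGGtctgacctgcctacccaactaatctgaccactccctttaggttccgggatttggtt
H2-DMb2: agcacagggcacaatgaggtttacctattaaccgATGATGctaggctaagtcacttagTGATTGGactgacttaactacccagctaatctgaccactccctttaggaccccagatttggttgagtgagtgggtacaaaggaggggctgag
H2-Ob: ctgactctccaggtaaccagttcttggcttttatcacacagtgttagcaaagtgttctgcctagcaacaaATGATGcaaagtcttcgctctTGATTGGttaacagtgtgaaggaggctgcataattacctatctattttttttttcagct
H2-Aa: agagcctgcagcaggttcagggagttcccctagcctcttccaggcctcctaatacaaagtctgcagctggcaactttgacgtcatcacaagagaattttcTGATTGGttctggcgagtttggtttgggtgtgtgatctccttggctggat

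TGATTGG stood in the windows of 6 of the 7 members, all but H2-DMa, and in 7.82% of 32851 promoter windows of all genes searched on both strands. ATGATG stood in 4 members and in 11.2% of all windows, and the pair in this order with at most 30 bases between stood in the same 4 members and in 19 windows of all genes (0.0578%). These letters and the spacing were chosen after the members' sequences had been looked at, so the share is a description. The X box letters began 116 bases before the start in H2-DMb2, 87 in H2-DMb1, 84 in H2-Eb1 and 80 in H2-Ob. Between the X and Y letters lay 18 bases in both H2-DMb2 and H2-DMb1, 17 in H2-Eb1 and 15 in H2-Ob. CCGGAAG, the core that GABP and other ETS factors bind, stood in 1 of the windows of H2-DMa, on the minus strand, and in 8.86% of all windows. No other member's window held these letters. A match marks letters, not a bound site, and the lack of a match does not show that an X or Y box is absent, in H2-Aa for example.

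The values are FPKM as deposited, fragments scaled to exon length and to the depth of the library. Libraries held 6.78 to 9.70 M fragments (M, mega), of which 48.0% to 86.0% came from the 13 mitochondrially encoded genes. Library 1 labelled db/db-GABP-KD stood apart, with a mean correlation of 0.873 to the other libraries of its group and the lowest mitochondrial share. Gabpa, the DNA-binding GABP subunit, had 3.45, 3.35 and 3.71 FPKM in db/m-GABP-OE, 6.62, 2.66 and 3.401 FPKM in the libraries labelled db/db-GABP-KD, 2.20, 2.17 and 1.63 FPKM in db/db-veh and 1.79, 2.32 and 2.54 FPKM in db/m-veh. As deposited, Gabpa thus went against the knockdown label, since every library labelled db/db-GABP-KD lay above every db/db-veh library (17.3% of all genes tested). After median of ratios scaling, explained below, these groups overlapped for Gabpa. Gabpb1, a beta subunit gene, overlapped as deposited, with 4.26, 1.02 and 1.14 FPKM under that label and 1.39, 0.619 and 1.46 FPKM in db/db-veh. Gabpb2 overlapped too. For Gabpa and Gabpb1 every db/m-GABP-OE library lay above every db/m-veh library as deposited (30.4% of all genes tested), while Gabpb2 overlapped. After median of ratios scaling all of these subunit genes overlapped between db/m-GABP-OE and db/m-veh, so the overexpression label was not borne out on that scale. Every direction given here for db/db-GABP-KD is one of libraries that carry the label, and they are called the knockdown label for short. Kidney genes such as Slc34a1, the phosphate transporter of the proximal tubule, were high throughout (133 to 698 FPKM).

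Class II genes stood highest in db/m-GABP-OE. In all 10 members every db/m-GABP-OE library lay above every db/m-veh library, where 30.4% of the 12897 genes tested did so, and the ratio of means ran from 4.01 (H2-DMb2) to 11.02 (H2-Eb1), with a median of 6.49. This is the contrast that chose the genes, and nothing is read from that share. Sums over the family were 294, 560 and 566 FPKM in db/m-GABP-OE against 82.3, 49.4 and 54.8 FPKM in db/m-veh. After median of ratios scaling, which sets libraries to a common level over 5872 nuclear genes, 9 of the 10 members did not overlap (9.71% of all genes), H2-DMb2 being the exception, and the ratios were 3.03 to 7.96. Markers of leukocytes were also high in db/m-GABP-OE (6 of 6 pan-leukocyte and 10 of 10 macrophage markers without overlap, 6 and 9 after median of ratios scaling), and their part in the class II values was not tested. In bulk tissue, more or fewer cells of a type and more or less RNA per cell cannot be told apart.

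The libraries labelled db/db-GABP-KD were then set against db/db-veh, which shares no library with the contrast that chose the genes. Every library labelled db/db-GABP-KD lay above every db/db-veh library in 8 of 10 members, against 17.3% of the genes tested. The exceptions were H2-Oa and H2-Ob, which had 0 fragments in all 3 libraries with that label. Of the 10, H2-Oa did not pass the filter for testing (0.3 FPKM in at least 3 libraries). Ciita, which is among the 8, and H2-Ob passed it only through the db/m-GABP-OE libraries that chose the family. The count is therefore a description beside that share. The ratio of means over the 8 members ran from 2.24 (Ciita) to 6.77 (H2-DMb1). After median of ratios scaling 6 members did not overlap, against 4.62% of all genes, with H2-DMb2 and Ciita then overlapping, and the ratios of the 8 were 1.53 to 4.62. Limma called no member and no gene at an adjusted p under 0.05 (0.0% of the 12897 genes tested), with 1839 genes at an unadjusted p under 0.05, and voom on recovered fragments also called 0. The count of 8 members was the same when any 1 of the 6 libraries was left out, library 1 labelled db/db-GABP-KD included.

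Between the vehicle groups, class II genes lay lower in db/db-veh. Every db/db-veh library was below every db/m-veh library in 5 of 10 members (H2-Aa, H2-Eb1, H2-DMb1, H2-Ob and Cd74), against 14.4% of the genes tested, and the same 5 did not overlap after median of ratios scaling (9.03% of all genes). H2-Ob, among these 5, passed the filter for testing only through the db/m-GABP-OE libraries, so this count too is a description. With 1 library left out the count was 5 to 7. Limma called 1 member, H2-DMb1, among 8 genes called lower (0.062% of those tested). This comparison shares the db/m-veh libraries with the one that chose the genes, and the db/db-veh libraries with the comparison of the knockdown label.

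On the log2(FPKM + 0.5) scale used for testing, which understates changes of low genes, 9 members passed the filter of 0.3 FPKM in at least 3 libraries. H2-Oa did not, and H2-Ob and Ciita passed through the db/m-GABP-OE libraries. The median log2 fold change of the 9 was 1.24 for the knockdown label against db/db-veh, where the median of all genes was 0.42. For db/db-veh relative to db/m-veh these medians were -0.84 and -0.24, and for db/m-GABP-OE over db/m-veh 2.41 and 0.38. Median of ratios scaling brought the all-gene medians to 0.0016, 0.011 and 0.043, and the family's to 1.00, -0.50 and 1.99.

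**Figure D1:**
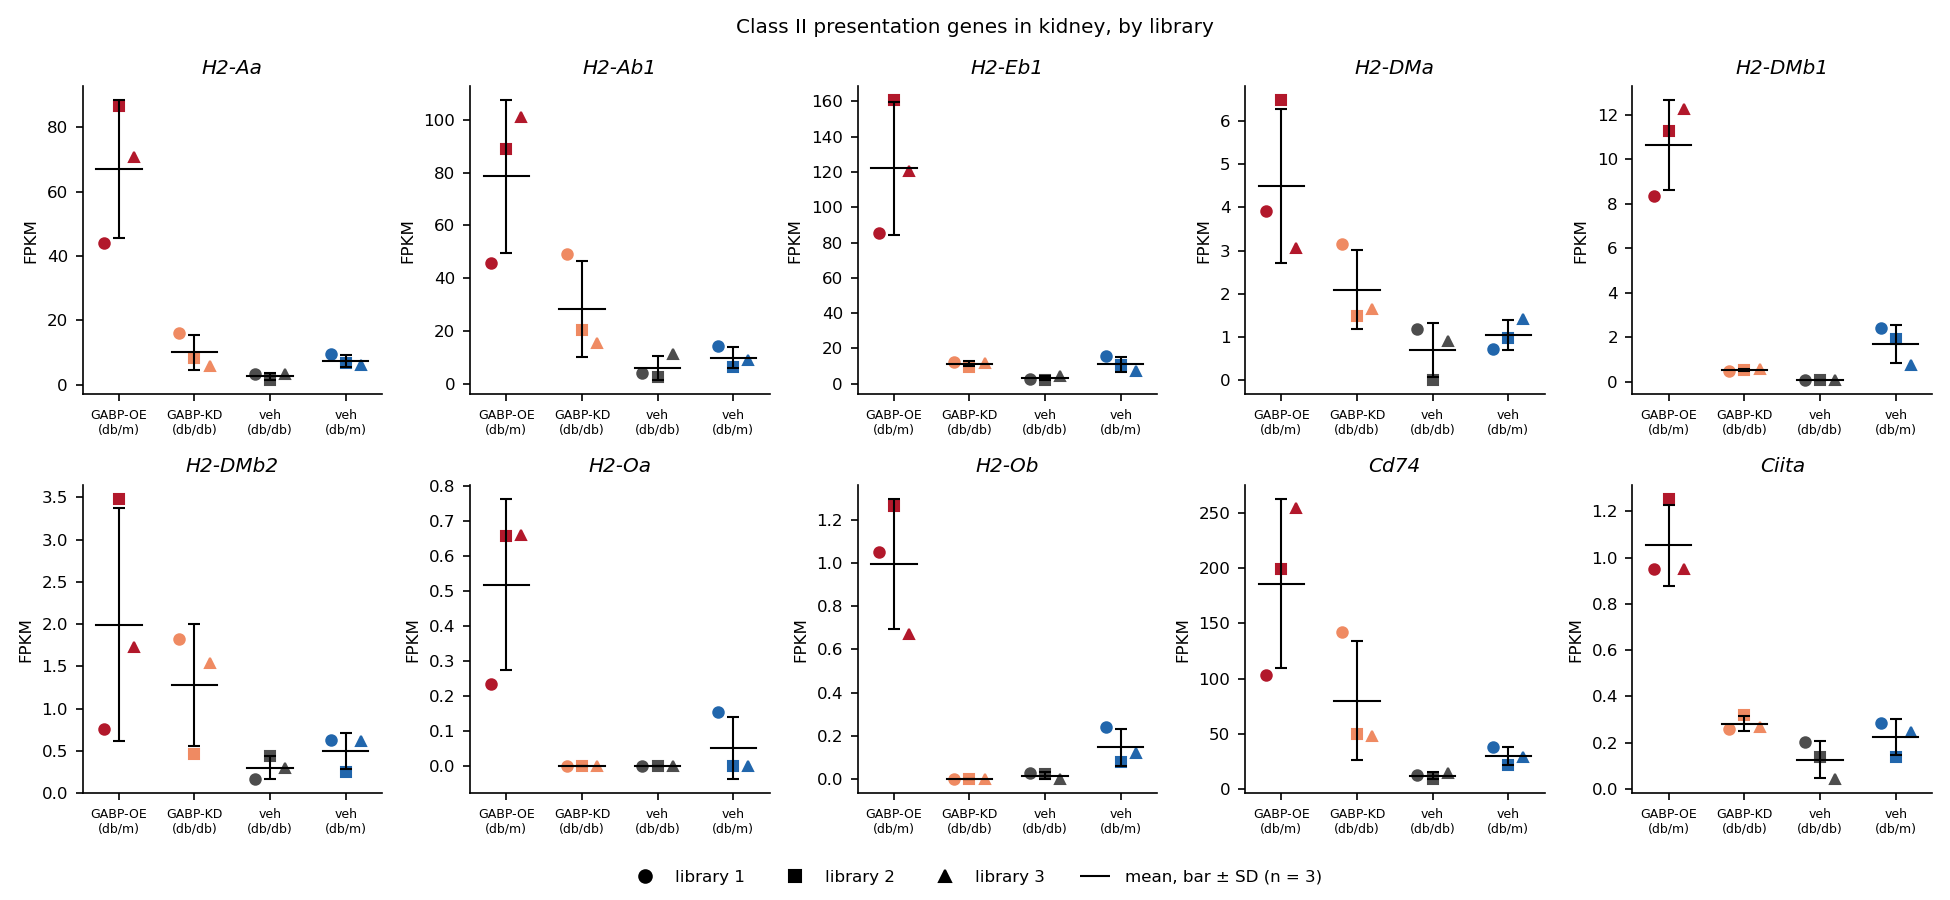
FPKM of the 10 class II genes in each kidney library, by group, with points for libraries, a line for the mean and a bar for ± SD (n = 3 libraries each). Each panel has its own axis; the db/m-GABP-OE points lie above all db/m-veh points in every panel, and db/db-veh lies lowest for H2-Aa, H2-Eb1, H2-DMb1 and Cd74.

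The classical chains form the molecule that binds the peptide. H2-Aa, the alpha chain of I-A, had 44.1, 86.5 and 70.7 FPKM in db/m-GABP-OE, 16.1, 8.25 and 5.804 FPKM in the libraries labelled db/db-GABP-KD, 3.26, 1.33 and 3.15 FPKM in db/db-veh and 9.59, 6.68 and 6.09 FPKM in db/m-veh. All db/m-GABP-OE libraries stood clear of the rest and all db/db-veh libraries below the rest, while the knockdown label and db/m-veh overlapped. The log2 fold change of H2-Aa was 1.73 for the knockdown label against db/db-veh (SE 0.44, 95% interval 0.79 to 2.66, limma adjusted p = 0.316). For db/db-veh relative to db/m-veh it was -1.42 (SE 0.44, 95% interval -2.35 to -0.48, limma adjusted p = 0.253).

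H2-Ab1, the beta chain of I-A, had 46.0, 88.8 and 101 FPKM in db/m-GABP-OE, 49.1, 20.5 and 15.5 FPKM in the libraries labelled db/db-GABP-KD, 4.31, 2.63 and 11.3 FPKM in db/db-veh and 14.6, 6.40 and 9.34 FPKM in db/m-veh. Library 1 with the knockdown label reached the lowest db/m-GABP-OE library, and that label lay above both vehicle groups, which overlapped each other. H2-Ab1 differed by 2.18 on the log2 scale between the knockdown label and db/db-veh (SE 0.54, 95% interval 1.03 to 3.34, limma adjusted p = 0.290), and by 1.70 without library 1 (limma adjusted p = 0.265). Against db/m-veh, db/db-veh differed by -0.84 (SE 0.54, limma adjusted p = 0.591).

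H2-Eb1, the beta chain of I-E, had 85.5, 161 and 120.2 FPKM in db/m-GABP-OE, 12.6, 9.77 and 11.6 FPKM in the libraries labelled db/db-GABP-KD, 2.58, 2.34 and 4.42 FPKM in db/db-veh and 15.5, 10.8 and 6.99 FPKM in db/m-veh. It had the widest ratio of the family in db/m-GABP-OE and a narrow range under the knockdown label, where the values overlapped those of db/m-veh. The log2 fold change was 1.75 for the knockdown label (SE 0.40, 95% interval 0.89 to 2.60, limma adjusted p = 0.229) and -1.66 for db/db-veh relative to db/m-veh (SE 0.40, 95% interval -2.51 to -0.81, limma adjusted p = 0.188). H2-Eb2, a neighbouring beta chain gene, was listed at 0 in both vehicle groups and reached at most 0.213 FPKM in db/m-GABP-OE and 0.0839 FPKM under the knockdown label. H2-Ea, the partner chain of H2-Eb1, was not analysed here.

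Cd74, the invariant chain gene on chromosome 18, had the highest mean of the family in every group. Its values were 103, 199.6 and 255 FPKM in db/m-GABP-OE, 142, 49.97 and 47.8 FPKM in the libraries labelled db/db-GABP-KD, 12.7, 8.73 and 14.7 FPKM in db/db-veh and 38.2, 22.1 and 29.2 FPKM in db/m-veh. The order was db/m-GABP-OE, the knockdown label, db/m-veh, db/db-veh, and only the top 2 overlapped, through library 1 with the knockdown label. On the log2(FPKM + 0.5) scale Cd74 had the largest change of the family for that label against db/db-veh, 2.51 (SE 0.49, 95% interval 1.48 to 3.55, limma adjusted p = 0.187), with 1.92 after median of ratios scaling (limma adjusted p = 0.0909) and 2.00 without library 1 (limma adjusted p = 0.149). All 3 labelled libraries lay above db/db-veh, but none of these values passed the threshold. By the ratio of means, with no pseudocount, Cd74 (6.62) came after H2-DMb1 (6.77), and after median of ratios scaling likewise (3.93 and 4.62). For db/db-veh relative to db/m-veh the change was -1.27 (SE 0.49, 95% interval -2.30 to -0.23, limma adjusted p = 0.322).

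The H2-DM chains load the peptide. H2-DMa, the alpha chain, had 3.92, 6.49 and 3.07 FPKM in db/m-GABP-OE, 3.16, 1.49 and 1.65 FPKM in the libraries labelled db/db-GABP-KD, 1.20, 0 and 0.906 FPKM in db/db-veh and 0.729, 0.979 and 1.43 FPKM in db/m-veh. The vehicle groups overlapped, and both lay below the other groups, which overlapped each other. Its log2 fold change was 1.24 for the knockdown label (SE 0.43, 95% interval 0.33 to 2.14, limma adjusted p = 0.345) and 0.69 without db/db-veh library 2, which had 0 fragments of H2-DMa. Between the vehicle groups it was -0.52 (SE 0.43, limma adjusted p = 0.698), and 0.024 without that library.

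H2-DMb1 and H2-DMb2 are near-identical beta chain genes, with transcripts that match at 95.5% of 1058 aligned bases, so how the counting split fragments between them is uncertain. H2-DMb1 had 8.37, 11.3 and 12.3 FPKM in db/m-GABP-OE, 0.493, 0.554 and 0.592 FPKM in the libraries labelled db/db-GABP-KD, 0.0877, 0.0772 and 0.0774 FPKM in db/db-veh and 2.41, 1.92 and 0.764 FPKM in db/m-veh. No group overlapped another, and both db/db groups lay below db/m-veh in every library. In db/db-veh each library held 1 fragment of H2-DMb1, against 37, 22 and 12 fragments in db/m-veh, a depth-scaled ratio of 0.0482 (3 against 71 fragments, exact 95% interval 0.00971 to 0.147, counting error only).

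H2-DMb1 fell in db/db-veh by 1.84 on the log2 scale (SE 0.32, 95% interval -2.50 to -1.17, limma adjusted p = 0.027), lower in 3 of 3 libraries. The call held in 13 of 21 other settings, whose adjusted p ran from 0.00142 to 0.228. It was lost when db/m-veh library 1 or 2 or any db/db-veh library was left out (limma adjusted p = 0.205, 0.0690, 0.114, 0.125 and 0.112), with a pseudocount of 1 (0.121), with no filter (0.107) and with voom (0.228). Under the knockdown label H2-DMb1 had 7, 8 and 7 fragments, a depth-scaled ratio of 6.76 to db/db-veh (22 against 3 fragments, exact 95% interval 2.03 to 35.3). The log2 fold change was 0.85 (SE 0.32, limma adjusted p = 0.345), which did not pass the threshold.

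H2-DMb2 had 0.761, 3.48 and 1.73 FPKM in db/m-GABP-OE, 1.83, 0.467 and 1.55 FPKM in the libraries labelled db/db-GABP-KD, 0.169, 0.446 and 0.298 FPKM in db/db-veh and 0.626, 0.252 and 0.613 FPKM in db/m-veh. Neighbours in the order of means overlapped at each step, unlike H2-DMb1. The log2 fold change was 1.06 for the knockdown label (SE 0.40, 95% interval 0.22 to 1.90, limma adjusted p = 0.345) and -0.30 for db/db-veh relative to db/m-veh (limma adjusted p = 0.832). Summed over the pair, which depends less on how fragments were split between them but misses any that counting dropped as shared, the values were 9.13, 14.8 and 13.99 FPKM in db/m-GABP-OE, 2.32, 1.02 and 2.14 FPKM under the knockdown label, 0.257, 0.523 and 0.376 FPKM in db/db-veh and 3.03, 2.17 and 1.38 FPKM in db/m-veh. The sum was thus below every db/m-veh library in all db/db-veh libraries, while the knockdown label overlapped db/m-veh.

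The H2-O chains, which restrain H2-DM and are known chiefly from B cells, thymus epithelium and some dendritic cells, were scarce. H2-Oa had 0.236, 0.659 and 0.662 FPKM in db/m-GABP-OE (3, 9 and 8 fragments), 0 in all libraries of both db/db groups, and 0.155, 0 and 0 FPKM in db/m-veh (2, 0 and 0 fragments). A count of 0 allows up to 3 fragments of H2-Oa, or 0.248 to 0.303 FPKM under the knockdown label and 0.277 to 0.314 FPKM in db/db-veh, so a level like that of the lowest db/m-GABP-OE library could have been missed. H2-Ob had 1.05, 1.26 and 0.671 FPKM in db/m-GABP-OE, 0 in the 3 libraries labelled db/db-GABP-KD, 0.0274, 0.0241 and 0 FPKM in db/db-veh and 0.244, 0.0818 and 0.119 FPKM in db/m-veh. For H2-Ob a count of 0 allows up to 0.0650 to 0.0793 FPKM under the knockdown label, just under the lowest db/m-veh library. Every db/m-GABP-OE library of H2-Ob lay above all others, and both db/db groups lay below db/m-veh in every library.

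Ciita, the transactivator that class II promoters need, had 0.952, 1.25 and 0.952 FPKM in db/m-GABP-OE, 0.261, 0.318 and 0.268 FPKM in the libraries labelled db/db-GABP-KD, 0.201, 0.136 and 0.0410 FPKM in db/db-veh and 0.287, 0.139 and 0.247 FPKM in db/m-veh. The db/m-GABP-OE libraries stood apart, the knockdown label lay just above db/db-veh, and both overlapped db/m-veh. Its log2 fold change was 0.33 for the knockdown label (SE 0.22, 95% interval -0.13 to 0.79, limma adjusted p = 0.413) and -0.21 for db/db-veh relative to db/m-veh (limma adjusted p = 0.762). The ratio of means was 4.70 for db/m-GABP-OE over db/m-veh and 2.24 for the knockdown label against db/db-veh, on 276, 65, 26 and 56 fragments per group in db/m-GABP-OE, the knockdown label, db/db-veh and db/m-veh.

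**Figure D2:**
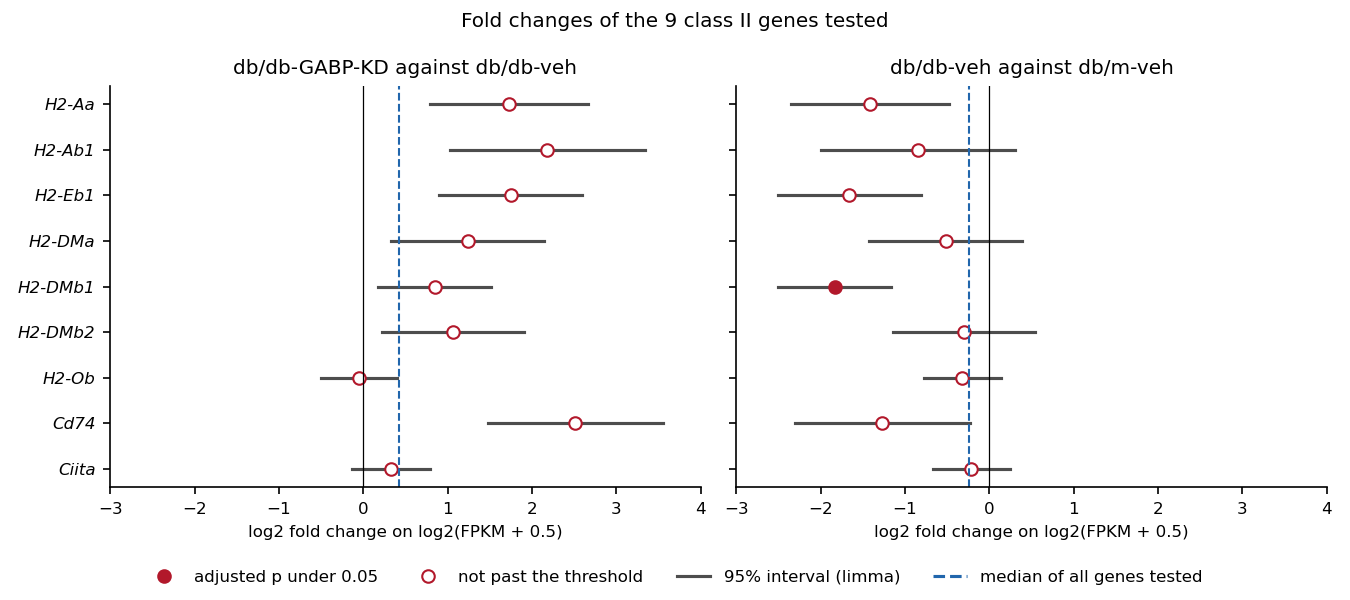
Log2 fold changes on log2(FPKM + 0.5) of the 9 class II genes tested, with 95% limma intervals (lines), for the knockdown label against db/db-veh (left) and db/db-veh relative to db/m-veh (right); the dashed line is the median of all genes. Cd74 lies farthest right at 2.51 in the left panel, and H2-DMb1 at -1.84 in the right panel is the only filled point (adjusted p under 0.05).

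The members did not keep the same proportions in all groups, which was described after the values were seen and carries no test. Cd74 per H2-Ab1 was the steadiest ratio of FPKM, at 2.24 to 2.53 in db/m-GABP-OE, 2.44 to 3.09 under the knockdown label, 1.31 to 3.32 in db/db-veh and 2.63 to 3.46 in db/m-veh. H2-Aa per H2-Ab1 was 0.701 to 0.974 in db/m-GABP-OE, 0.327 to 0.403 under the knockdown label, 0.280 to 0.757 in db/db-veh and 0.652 to 1.04 in db/m-veh. Every db/m library thus lay above every library with the knockdown label, while db/db-veh spread across both ranges.

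H2-Eb1 per H2-Ab1 was 1.19 to 1.86 in db/m-GABP-OE, 0.257 to 0.748 under the knockdown label, 0.393 to 0.889 in db/db-veh and 0.749 to 1.69 in db/m-veh. H2-DMb1 per H2-DMb2 was higher in the db/m than in the db/db kidneys, with 3.24 to 11.0 in db/m-GABP-OE, 0.269 to 1.19 under the knockdown label, 0.173 to 0.520 in db/db-veh and 1.25 to 7.62 in db/m-veh. H2-DMb1 per H2-Eb1 was also higher in the db/m kidneys, at 0.0702 to 0.102 in db/m-GABP-OE, 0.0391 to 0.0568 under the knockdown label, 0.0175 to 0.0340 in db/db-veh and 0.109 to 0.178 in db/m-veh. As counted, every db/m library had more H2-DMb1 relative to H2-Eb1 than any db/db library, on 1 H2-DMb1 fragment in each db/db-veh library. The uncertain split between H2-DMb1 and H2-DMb2 bears on this ratio too. With the pair summed, the db/m and db/db libraries overlapped relative to H2-Eb1. Library 1 labelled db/db-GABP-KD had 2.32 FPKM of the pair beside 12.6 FPKM of H2-Eb1. In db/m-GABP-OE library 1 these values were 9.13 and 85.5 FPKM. For H2-DMb1 per H2-DMb2 the nearest libraries were not distinct in their counts. There were 12 fragments of H2-DMb1 and 10 of H2-DMb2 in db/m-veh library 3, beside 8 and 7 in library 2 labelled db/db-GABP-KD. The split of fragments within this pair is uncertain.

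**Figure D3:**
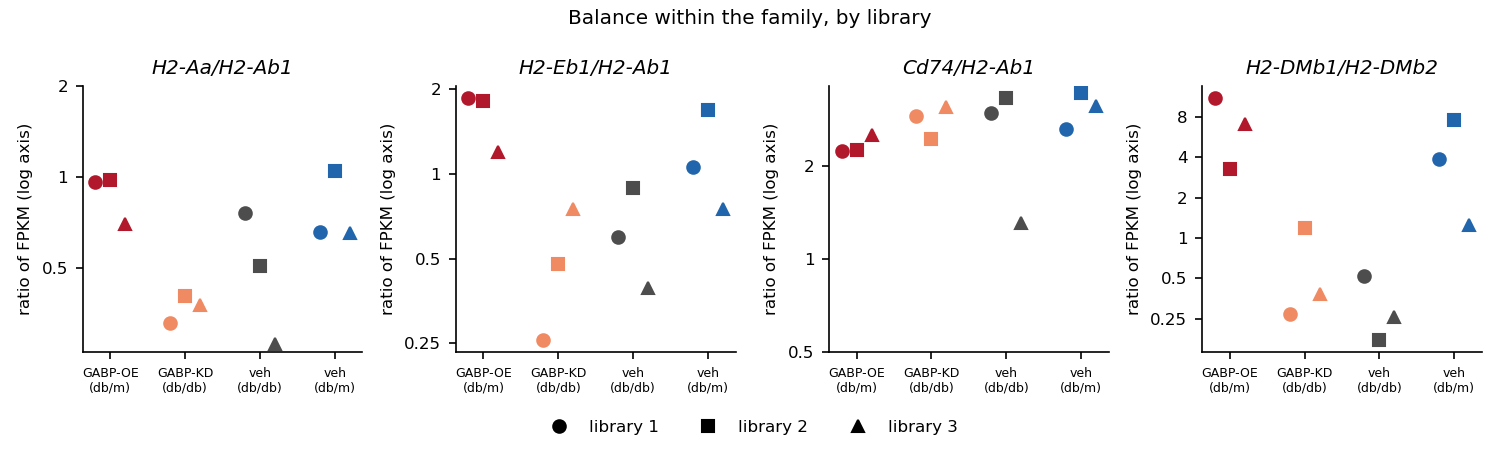
Ratios of FPKM between class II genes in each library, by group, on log axes that differ between panels; symbols are libraries. Cd74 per H2-Ab1 varied least, and H2-DMb1 per H2-DMb2 was 1.25 to 11.0 in the db/m libraries and 0.173 to 1.19 in the db/db libraries.

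Of the genes that bear on class II promoters, none was called in either tested comparison. Among 7 subunits of RFX and NF-Y and Creb1, 3 had all db/m-GABP-OE libraries above db/m-veh (30.4% of all genes) and 3 had all libraries with the knockdown label above db/db-veh (17.3% of all genes). After median of ratios scaling these counts were 1 and 1, and 1 gene lay below db/m-veh in every db/m-GABP-OE library. Nfya, an NF-Y subunit, had 3.45, 3.42 and 4.52 FPKM in db/m-GABP-OE and 2.63, 1.67 and 2.14 FPKM in db/m-veh, but overlapped after that scaling. The gene still above in db/m-GABP-OE was Creb1 (1.09 to 1.41 scaled FPKM, against 0.845 to 0.934 in db/m-veh). Rfxap, an RFX subunit, had 6.71, 3.01 and 3.55 FPKM under the knockdown label and 2.30, 0.984 and 2.73 FPKM in db/db-veh, which did not overlap (limma log2 fold change 0.98, SE 0.36, adjusted p = 0.345).

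On the route by which interferon gamma turns on Ciita, 9 genes were in the table and 8 were tested. All 8 had every db/m-GABP-OE library above every db/m-veh library (3 after median of ratios scaling), and 3 had every library with the knockdown label above db/db-veh (0 after that scaling). Among all genes tested these shares were 30.4% (9.71% after that scaling) for db/m-GABP-OE and 17.3% (4.62%) for the knockdown label. Ifng itself had 0.171, 0.318 and 0 FPKM in db/m-GABP-OE and 0 in the 9 other libraries. Irf1, an interferon-induced activator of Ciita, had 4.37, 5.26 and 3.16 FPKM in db/m-GABP-OE and 0.963, 1.96 and 1.97 FPKM in db/m-veh. Spi1, the myeloid factor PU.1, had 5.79, 7.92 and 9.46 FPKM in db/m-GABP-OE and 2.72, 1.85 and 1.91 FPKM in db/m-veh. Spi1 had 2.24, 3.29 and 2.22 FPKM under the knockdown label and 1.37, 0.770 and 0.242 FPKM in db/db-veh (limma log2 fold change 1.33, SE 0.36, adjusted p = 0.337). Both factors were thus separated between db/m-GABP-OE and db/m-veh, and Spi1 also under the knockdown label, without passing the test.

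The 8 genes listed for lysosomal antigen processing include Cst3, an inhibitor of cathepsins, beside the enzymes. Of these 8 genes, 3 had all db/m-GABP-OE libraries above db/m-veh, a share near the 30.4% of all genes. All libraries with the knockdown label lay above db/db-veh in 5 (17.3% of all genes). Cst3 is counted in both. After median of ratios scaling 2 lay above and 1 below in db/m-GABP-OE, and 3 lay above under the knockdown label. Limma called none in the tested comparisons. Ctss, the protease cathepsin S that trims the invariant chain, had 18.1, 17.9 and 16.5 FPKM in db/m-GABP-OE and 1.45, 3.998 and 3.71 FPKM in db/m-veh. Under the knockdown label Ctss had 6.19, 6.52 and 7.85 FPKM, against 2.61, 4.20 and 2.21 FPKM in db/db-veh (limma log2 fold change 1.10, SE 0.37, adjusted p = 0.345). Ctsl, cathepsin L, had 149, 20.003 and 20.8 FPKM under the knockdown label and 10.3, 12.4 and 15.3 FPKM in db/db-veh, where library 1 stands far above the rest. Ctsl had 17.8, 21.2 and 22.3 FPKM in db/m-GABP-OE and 10.4, 15.9 and 27.7 FPKM in db/m-veh, which overlapped.

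Genes that act with class II at the cell surface were low. Of 4 costimulatory or inhibitory ligands and receptors tested, 3 (Cd86, Cd40 and Icosl) had all db/m-GABP-OE libraries above db/m-veh (30.4% of all genes), and 1 after median of ratios scaling. Cd274, the inhibitory ligand PD-L1, was the 1 gene with all libraries of the knockdown label above db/db-veh (17.3% of all genes). Its values were 1.08, 0.354 and 0.785 FPKM against 0.122, 0.0717 and 0.252 FPKM. Cd86, a ligand of CD28, had 0.726, 0.957 and 1.21 FPKM in db/m-GABP-OE and 0.388, 0.160 and 0.351 FPKM in db/m-veh. March8, a ubiquitin ligase known to remove class II from the surface, had 4.78, 4.51 and 4.41 FPKM in db/m-GABP-OE and 2.95, 4.31 and 4.95 FPKM in db/m-veh, which overlapped.

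Markers of cells that carry class II were set beside the family, and their part in the class II values was not tested. In db/m-GABP-OE, summed macrophage markers were 130 to 241 FPKM against 29.5 to 34.4 FPKM in db/m-veh, and pan-leukocyte markers were 43.9 to 66.8 FPKM against 10.9 to 14.7 FPKM. Dendritic cell markers were 8.89 to 12.9 FPKM against 1.61 to 4.12 FPKM (3 of 6 tested without overlap), and B cell markers 2.07 to 4.86 FPKM against 1.25 to 1.83 FPKM (1 of 2). T cell markers were 4.65 to 6.96 FPKM against 0.863 to 1.58 FPKM (4 of 5), and genes of lymphoid tissue stroma, led by the chemokine Ccl21a, were 42.6 to 48.4 FPKM against 5.61 to 10.9 FPKM (3 of 3). All 6 marker sums were therefore separated between db/m-GABP-OE and db/m-veh as deposited, in the same direction as class II. After median of ratios scaling the B cell sums overlapped (1.64 to 3.72 scaled FPKM in db/m-GABP-OE and 1.38 to 1.69 in db/m-veh) and the other 5 did not. Single genes without overlap then numbered 2 of 6 for dendritic cells, 0 of 2 for B cells, 3 of 5 for T cells and 2 of 3 for lymphoid stroma. The share of all genes tested was 30.4% as deposited and 9.71% after scaling.

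Under the knockdown label the marker lists differed less evenly from db/db-veh. Pan-leukocyte markers summed to 16.8, 17.5 and 8.96 FPKM, against 7.01, 5.92 and 7.37 FPKM in db/db-veh, with 0 of 6 markers free of overlap on their own, and these sums overlapped after median of ratios scaling. Macrophage markers summed to 18.3, 73.2 and 87.7 FPKM, against 27.7, 13.7 and 15.5 FPKM (2 of 10, where 17.3% of all genes were free of overlap). Library 1 with that label held the highest class II sum of its group, 226 FPKM against 91.3 and 84.6 FPKM, and the lowest macrophage sum. Its macrophage markers did not move together. C1qa, a complement gene of resident macrophages, was 0.797 FPKM, against 11.99 and 12.7 FPKM in libraries 2 and 3, while Cd68, a lysosomal protein of macrophages, was 11.3 FPKM, against 4.17 and 3.39 FPKM. Dendritic cell markers summed to 1.56 to 3.34 FPKM under the knockdown label and 1.39 to 1.63 FPKM in db/db-veh (0 of 6), with Xcr1 and Cd209a at 0 in all libraries with the label and Cd209a also in db/db-veh. B cell markers summed to 0.118 to 0.279 FPKM and 0.178 to 0.552 FPKM (0 of 2). After median of ratios scaling these sums were lower under the knockdown label without overlap. The B cell gene Ms4a1 was at 0 in every library with the label and had 0.0238, 0 and 0 FPKM in db/db-veh, so it did not tell these groups apart. T cell markers summed to 0.313 to 1.31 FPKM and 0.463 to 0.605 FPKM (0 of 5), and lymphoid stroma genes to 4.58 to 8.65 FPKM and 2.20 to 11.2 FPKM (0 of 3).

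Between the vehicle groups, macrophage markers summed to 13.7 to 27.7 FPKM in db/db-veh and 29.5 to 34.4 FPKM in db/m-veh, and pan-leukocyte markers to 5.92 to 7.37 FPKM and 10.9 to 14.7 FPKM. B cell markers summed to 0.178 to 0.552 FPKM in db/db-veh and 1.25 to 1.83 FPKM in db/m-veh, and T cell markers to 0.463 to 0.605 FPKM and 0.863 to 1.58 FPKM. As deposited, these 4 sums were lower in every db/db-veh library, while dendritic cell markers (1.39 to 1.63 FPKM and 1.61 to 4.12 FPKM) and lymphoid stroma genes (2.20 to 11.2 FPKM and 5.61 to 10.9 FPKM) overlapped. After median of ratios scaling the B cell sums were still separate, and the macrophage, pan-leukocyte and T cell sums overlapped. The class II sum stayed separate (26.6 to 43.3 scaled FPKM in db/db-veh and 50.5 to 84.0 in db/m-veh). So did the sum of the class I presentation genes described below (229 to 433 scaled FPKM in db/db-veh and 492 to 654 in db/m-veh). Single markers lay below db/m-veh in every db/db-veh library in 4 of 10 macrophage, 3 of 6 pan-leukocyte, 0 of 2 B cell and 1 of 5 T cell genes (14.4% of all genes), and in 2, 2, 0 and 1 of them after scaling.

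**Figure D4:**
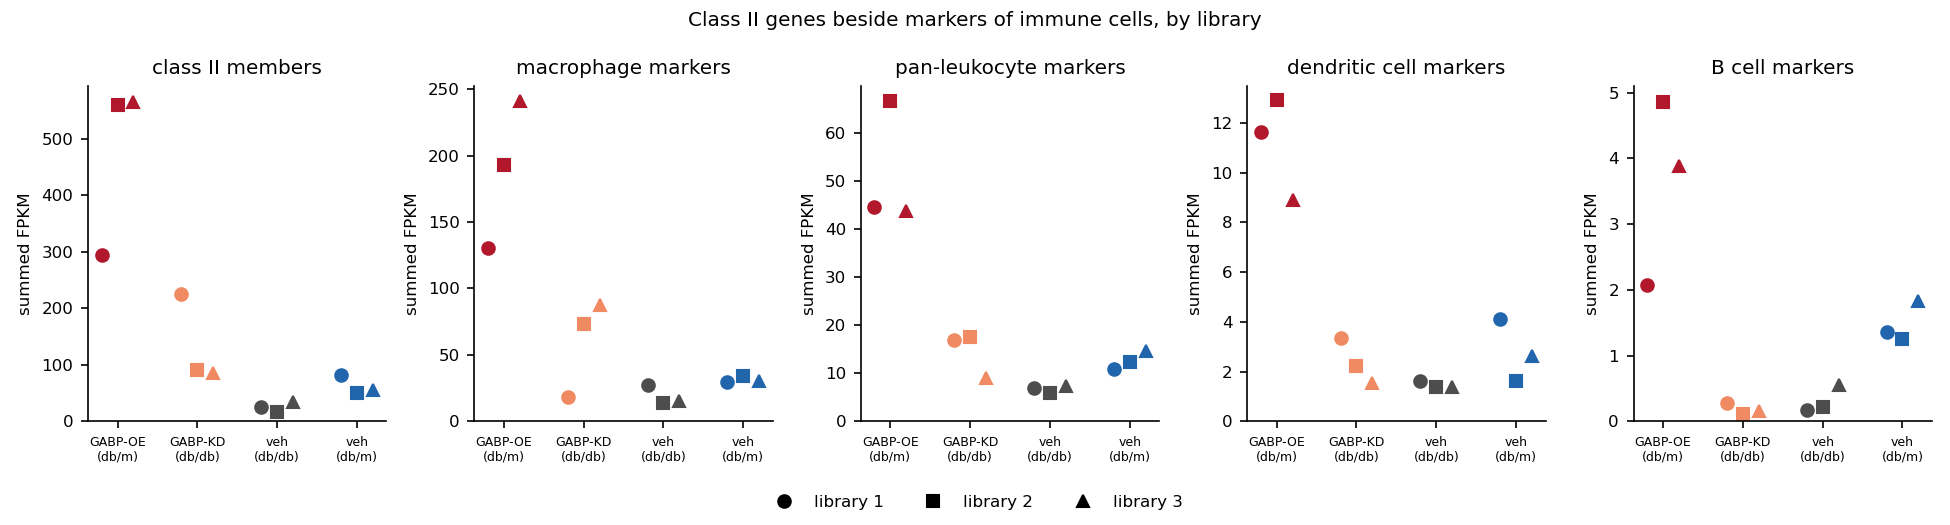
Summed FPKM, as deposited, of the class II genes and of 4 lists of immune cell markers in each library, by group; each panel has its own axis from 0 and symbols are libraries. Every sum was highest in db/m-GABP-OE, and library 1 labelled db/db-GABP-KD had the highest class II sum of its group (226 FPKM) beside the lowest macrophage sum (18.3 FPKM).

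Genes outside the family were ranked by how closely their profile over the 12 libraries followed the mean of H2-Aa, H2-Ab1, H2-Eb1 and Cd74, as the root mean square difference of centred log2 values after median of ratios scaling. Among 9296 genes with a mean of at least 1 FPKM the median difference was 1.37. The profile includes the db/m-GABP-OE libraries that chose the family, so the order is a description. The 6 members that are not part of that mean ran from 0.673 (H2-DMb1) to 1.02 (H2-DMb2). The 6 closest genes were H2-K1 (0.531), a class I heavy chain, Rpsa (0.550), a ribosomal protein, Mpeg1 (0.597), a macrophage pore protein, Retnla (0.619), a marker of alternatively activated macrophages, Nhp2 (0.625), a small nucleolar RNA protein, and Lst1 (0.653), a leukocyte gene. H2-K1 averaged 84.9 ± 15.6 FPKM in db/m-GABP-OE, 30.2 ± 24.1 FPKM under the knockdown label, 7.95 ± 1.87 FPKM in db/db-veh and 23.4 ± 6.88 FPKM in db/m-veh (SD, n = 3 each). Mpeg1 averaged 8.84 ± 2.14 FPKM, 2.00 ± 0.951 FPKM, 0.552 ± 0.246 FPKM and 1.29 ± 0.570 FPKM in the same 4 groups. Retnla was at 0 in all libraries outside db/m-GABP-OE, so it followed the family there only.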

How the data were processed

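The authors deposited 1 FPKM value per gene and library for 21899 genes, 1 table for all 12 libraries, with no value column left unused. Per the labels' protocols, poly(A) RNA was fragmented, primed at random and sequenced in pairs. The submitters' processing notes name HTSeq and the build GRCm39, with no version, and the sources used here do not give the aligner, annotation or strand setting. Exon lengths of GENCODE M21 (GRCm38) turned 98.0% to 98.2% of each library's values above 0 into whole fragments (tolerance 0.05), all member values included, so GRCm38 coordinates are given. The exact 95% intervals and the limit of 3 fragments that a count of 0 allows cover counting error only, since PCR copies cannot be told from molecules.

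Limma 3.58.1 (R 4.3.3) was fitted to log2(FPKM + 0.5) of 12897 genes with at least 0.3 FPKM in at least 3 libraries, all 12 libraries in 1 fit, variances with a trend, two-sided, Benjamini-Hochberg adjusted p under 0.05 over all genes. The fit was tested on simulated data. Groups were taken from the titles of the samples. The members and lists were chosen with earlier results of these data known. A gene of the B cell marker list is not reported here and was left out of its sums. From each list up to 4 genes were eligible to be named, those with the largest fold change with GABP-OE or the knockdown label, and other list genes that are named were chosen after their values were seen. Alternatives were other pseudocounts, filters and scaling, fits of 2 groups, no trend, a replicate block, voom on recovered fragments, and each library left out. The overlap counts outside the db/m-GABP-OE comparison and the marker sums were recomputed under alternatives chosen after seeing the data. Python 3.11.15, pandas 2.3.3, numpy 2.4.6, scipy 1.17.1, Biopython 1.88 and matplotlib 3.10.9 did the rest.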

Additional observations from a re-analysis of the deposited data

How the results depend on the processing

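Between db/db-veh and db/m-veh, the 12 genes called became 2 with no filter, 22 after median of ratios scaling, 41 in a fit of the 2 groups, 5 with voom and 13 with a replicate block. Leaving out 1 library gave 2 to 48 (48 without db/db-GABP-KD library 1, 2 without db/db-veh library 1). Of the class II genes, 1 was called, and 0 with a pseudocount of 1, with no filter or with voom, 0 to 1 with a library left out, and 1 with the replicate block. Of the members, the log2 fold change of H2-DMa in this comparison changed sign, at -0.86 to 0.024 with a library left out (0.024 without db/db-veh library 2, where it had 0 fragments). For the knockdown label against db/db-veh, the 0 genes called became 1 with no filter and 5 after median of ratios scaling, 0 to 4 with a library left out (4 without library 1 of that label), and 0 with the replicate block; 0 members were called under any of these. The cause of these differences was not tested. Members without overlap numbered 10 for db/m-GABP-OE with any library left out. Deviations of libraries with the same number correlated at 0.07, 0.38 and 0.12 between the vehicle groups and at -0.19, 0.33 and -0.48 between the knockdown label and db/db-veh, so that the numbers were not taken as pairs. H2-Oa and H2-Ob rest on few fragments, and 3 libraries per group leave wide intervals for the others.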

Other observations

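The class I pathway, which shows peptides from inside the cell, ran beside class II. Of 13 class I presentation genes, 11 had every db/m-GABP-OE library above every db/m-veh library (7 after median of ratios scaling), 8 had every library labelled db/db-GABP-KD above every db/db-veh library (4 after that scaling), and 6 had every db/db-veh library below db/m-veh (4 after it). Over all genes tested, the shares in these 3 comparisons were 30.4%, 17.3% and 14.4%, and 9.71%, 4.62% and 9.03% after that scaling. Limma called none of the 13 in the last 2 comparisons. B2m, the light chain of class I, had 413, 587 and 896 FPKM in db/m-GABP-OE, 974, 223 and 270 FPKM under the knockdown label, 92.6, 81.5 and 225 FPKM in db/db-veh and 322, 213 and 312 FPKM in db/m-veh. H2-D1, a heavy chain, had 105, 136 and 125 FPKM, 176, 45.2 and 55.0 FPKM, 25.2, 18.4 and 28.0 FPKM, and 49.3, 48.1 and 60.7 FPKM in the same groups. As deposited, and unlike the class II genes, both were higher in library 1 of the knockdown label than in any db/m-GABP-OE library. After median of ratios scaling neither was. Psmb8, an immunoproteasome subunit, had 3.82, 2.24 and 1.39 FPKM under the knockdown label and 0.611, 0.192 and 0.385 FPKM in db/db-veh (limma log2 fold change 1.68, SE 0.32, adjusted p = 0.187, higher in 3 of 3 libraries). Nlrc5, the relative of Ciita that drives class I genes, had 1.67, 2.14 and 1.11 FPKM in db/m-GABP-OE, 1.35, 1.04 and 1.00 FPKM under the knockdown label, 0.868, 0.306 and 0.169 FPKM in db/db-veh and 0.412, 0.225 and 0.340 FPKM in db/m-veh.

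Of 12 genes that interferon gamma induces, 11 had every db/m-GABP-OE library above db/m-veh (8 after median of ratios scaling), 5 had every library with the knockdown label above db/db-veh (2 after it), and 0 had every db/db-veh library below db/m-veh. The shares of all genes tested were 30.4%, 17.3% and 14.4%, and 9.71%, 4.62% and 9.03% after that scaling. Cxcl10, a chemokine for T cells, had 3.20, 4.76 and 4.08 FPKM in db/m-GABP-OE and 1.26, 0.195 and 0.523 FPKM in db/m-veh. Gbp2, a guanylate-binding protein, had 3.15, 2.55 and 2.37 FPKM under the knockdown label and 0.879, 0.825 and 0.103 FPKM in db/db-veh (limma log2 fold change 1.62, SE 0.37, adjusted p = 0.229, higher in 3 of 3 libraries). The median log2 fold change of these 12 genes for db/db-veh relative to db/m-veh was 0.047, beside -0.84 for the 9 class II genes tested and -0.24 for all genes.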
